A study of Mus musculus with 3 samples.

Results

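The 78 genes described here carry the Mrpl and Mrps symbols of mitochondrial ribosomal proteins in the mouse. They were chosen by name alone, as the protein-coding genes of the RefSeq GRCm38.p6 gene table whose symbol is Mrpl or Mrps followed by a digit, out of 21883 protein-coding genes on assembled chromosomes. There are 49 Mrpl and 29 Mrps genes on 17 chromosomes, with 11 on chromosome 11, 8 on chromosome 17 and 7 on chromosome 6. The chromatin came from alveolar type II (AT2) cells, the surfactant-producing epithelial cells of the lung, of C57BL/6 mice aged 10 to 12 weeks, with no genetic change or treatment named for any sample. Cells (20000000) were fixed with 1% formaldehyde for 11 min and sheared to 300 to 500 bp. How many animals gave the cells, and how pure these were, was not given in the sources used here. Of the 3 samples, 1 was a library made with a Proteintech antibody against ETV5, an ETS-family transcription factor, 1 was made with an Abcam antibody against H3K4me3, the histone mark of active promoters, and 1 was input without antibody. Each antibody has 1 peak list, so no value below has a replicate check and no test between samples was possible.

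The mitochondrial ribosome translates the few proteins that mitochondrial DNA encodes, all of them subunits of the respiratory chain and ATP synthase. Its RNAs are encoded by mitochondrial DNA, whereas all of its proteins are encoded in the nucleus and imported. Promoters of nuclear genes for mitochondrial proteins are known for sites of the ETS factor GABP, of NRF1 and of YY1, and ETS factors, ETV5 included, share a core recognition sequence with GGAA.

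Promoter stretches of 11 members are shown in 4 sets, from 150 bases before to 30 bases after the annotated start, read 5′ to 3′ on the gene's strand from the RefSeq promoter table of build GRCm38.p6. Capitals mark every full match to CCGGAAG (an ETS site), AAGATGGC (a YY1 site) or the palindromic NRF1 motif of 10 letters, capitalised in Mrpl32, on either strand, so CCGGAAG on the opposite strand reads CTTCCGG and AAGATGGC reads GCCATCTT. The 3 members below had the highest ETV5 pileup at a listed start.
Mrps27: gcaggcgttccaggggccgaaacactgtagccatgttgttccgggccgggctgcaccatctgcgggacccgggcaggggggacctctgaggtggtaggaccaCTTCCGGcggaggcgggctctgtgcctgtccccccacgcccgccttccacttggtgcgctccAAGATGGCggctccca
Mrpl57: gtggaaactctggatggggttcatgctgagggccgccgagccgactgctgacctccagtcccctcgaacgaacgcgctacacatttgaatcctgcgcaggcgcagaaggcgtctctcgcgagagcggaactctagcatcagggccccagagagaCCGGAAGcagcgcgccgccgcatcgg
Mrpl23: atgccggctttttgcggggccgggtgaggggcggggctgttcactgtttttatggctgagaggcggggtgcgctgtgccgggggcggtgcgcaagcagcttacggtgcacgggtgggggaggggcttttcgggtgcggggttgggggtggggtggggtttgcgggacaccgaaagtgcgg

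The 4 members below held more than 1 CCGGAAG match in the printed stretch, and they show the spacing and orientation of repeated matches.
Mrpl52: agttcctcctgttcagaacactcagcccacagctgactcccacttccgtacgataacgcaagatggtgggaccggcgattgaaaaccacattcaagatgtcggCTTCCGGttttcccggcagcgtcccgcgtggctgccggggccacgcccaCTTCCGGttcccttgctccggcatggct
Mrpl43: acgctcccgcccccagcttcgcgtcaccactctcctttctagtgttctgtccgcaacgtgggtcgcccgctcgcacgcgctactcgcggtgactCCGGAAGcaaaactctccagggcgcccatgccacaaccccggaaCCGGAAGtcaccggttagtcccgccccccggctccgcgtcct
Mrpl58: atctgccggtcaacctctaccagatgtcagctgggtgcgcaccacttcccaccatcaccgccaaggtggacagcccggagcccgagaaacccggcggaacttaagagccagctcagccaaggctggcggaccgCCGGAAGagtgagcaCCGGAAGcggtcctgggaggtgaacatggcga
Mrpl53: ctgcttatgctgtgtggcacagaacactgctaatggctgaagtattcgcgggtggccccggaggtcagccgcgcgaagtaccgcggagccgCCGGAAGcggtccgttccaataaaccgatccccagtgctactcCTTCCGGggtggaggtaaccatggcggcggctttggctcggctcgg

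The 3 members below had the lowest ETV5 pileups at a listed start, with Mrpl3 (not shown) tied with Mrpl36. The last promoter, that of Mrps11, lies in the only peak that a pair of members shared. In Mrpl35 a match to AAGATGGC runs 1 base past the end of the stretch and is left in lower case.
Mrpl35: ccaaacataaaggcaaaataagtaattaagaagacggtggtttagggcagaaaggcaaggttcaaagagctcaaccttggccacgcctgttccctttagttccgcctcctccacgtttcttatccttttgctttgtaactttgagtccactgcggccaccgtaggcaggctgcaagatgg
Mrpl32: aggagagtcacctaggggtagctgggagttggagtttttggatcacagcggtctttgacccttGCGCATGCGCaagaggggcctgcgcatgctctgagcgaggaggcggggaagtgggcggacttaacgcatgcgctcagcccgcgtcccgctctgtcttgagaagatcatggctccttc
Mrpl36: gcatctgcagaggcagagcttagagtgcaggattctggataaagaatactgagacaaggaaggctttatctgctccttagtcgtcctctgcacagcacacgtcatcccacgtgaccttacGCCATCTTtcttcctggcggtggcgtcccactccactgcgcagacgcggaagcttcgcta
Mrps11: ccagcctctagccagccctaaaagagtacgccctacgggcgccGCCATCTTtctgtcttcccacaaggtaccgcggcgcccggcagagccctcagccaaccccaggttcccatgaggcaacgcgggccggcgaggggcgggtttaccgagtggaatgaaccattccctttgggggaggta

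These stretches lie at chr13:99344636-99344815 (Mrps27, plus strand), chr14:57826089-57826268 (Mrpl57, plus), chr7:142532882-142533061 (Mrpl23, plus), chr14:54426759-54426938 (Mrpl52, plus), chr19:45006413-45006592 (Mrpl43, minus), chr11:115403602-115403781 (Mrpl58, plus) and chr6:83108958-83109137 (Mrpl53, plus). The last 4 lie at chr6:71823755-71823934 (Mrpl35, minus), chr13:14613008-14613187 (Mrpl32, minus), chr13:73330859-73331038 (Mrpl36, plus) and chr7:78782981-78783160 (Mrps11, plus). The RefSeq table gave starts for 69 of the 78 members and for 17491 of the 21883 protein-coding genes. The members without an entry are Mrps35, Mrpl54, Mrps34, Mrpl19, Mrps28, Mrpl38, Mrpl15, Mrpl4 and Mrpl13, for which positions are given from the nearer gene end.

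The ETV5 list held 31165 peaks from 5715049 tags, and the H3K4me3 list 15134 peaks from 34907608 tags. The pileup of a peak is the number of overlapping fragments at its summit, the position of its highest coverage. Depth, fragment length and input differ between the lists, so pileups were compared within an antibody and not between antibodies. Intervals are exact 95% Clopper-Pearson intervals for shares and exact Poisson intervals for pileups. They cover counting error only, since sequenced reads without molecular identifiers are not independent molecules. The chromatin was pooled from many cells, so a peak present in fewer cells and a weaker peak per cell cannot be told apart. Of the AT2 markers 10 of 10 (Sftpc, Sftpb, Abca3 and Nkx2-1 among them) had an H3K4me3 summit within 5 kb, against 5 of 6 alveolar type I markers, 1 of 6 airway markers (Foxj1), 1 of 6 leukocyte markers (Cd68), 1 of 6 endothelial markers (Tek) and 0 of 6 mesenchymal markers.

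ETV5 lay at nearly every member. An ETV5 summit fell in the gene or within 5 kb of it for 77 of 78 members (98.7%, interval 93.1 to 99.97%), where 63.1% of all protein-coding genes had one. An H3K4me3 summit was found for 78 of 78 members (interval 95.4 to 100%), against 59.4% of all protein-coding genes. Among the protein-coding genes that had H3K4me3 within 5 kb, 95.2% also had ETV5, a share inside the members' interval. At the level of the start itself, all 69 members with a listed start had a summit of each antibody within 1 kb of it, against 54.9% of genes with a listed start for ETV5 and 53.5% for H3K4me3. Fold enrichment over input, the authors' own value for each peak, reached 10 at the highest ETV5 peak of 57 members (73.1%), against 42.3% of all protein-coding genes, and at the highest H3K4me3 peak of all 78, against 53.8%. Among genes with a peak the contrast was smaller, with 74.0% of members (62.8 to 83.4%) against 67% for ETV5, where the interval includes the background, and 100% against 90.5% for H3K4me3.

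The height of the ETV5 peaks varied widely among the members. The highest ETV5 pileup within 5 kb ran from 9 to 288 fragments over the 77 members with a peak, with a median of 43 and quartiles of 23 and 73. Over all 13805 protein-coding genes with an ETV5 peak the median was 30 (quartiles 18 and 53), and over the 12377 genes that also had H3K4me3 it was 34 (21 and 56). Of the 78 members 46 lay above 34. Of the 77 members with a peak, 9 (11.7%, 5.49 to 21.0%) had a pileup of at least 100, against 7.61% of genes with an ETV5 peak, and 15 (19.5%, 11.3 to 30.1%) had one under 20, against 28.9%. Both intervals include the background. The median width of the highest ETV5 peak was 732 bp in the members and 783 bp over all genes with a peak, and its median fold was 19.9 and 14.2.

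**Figure D1:**
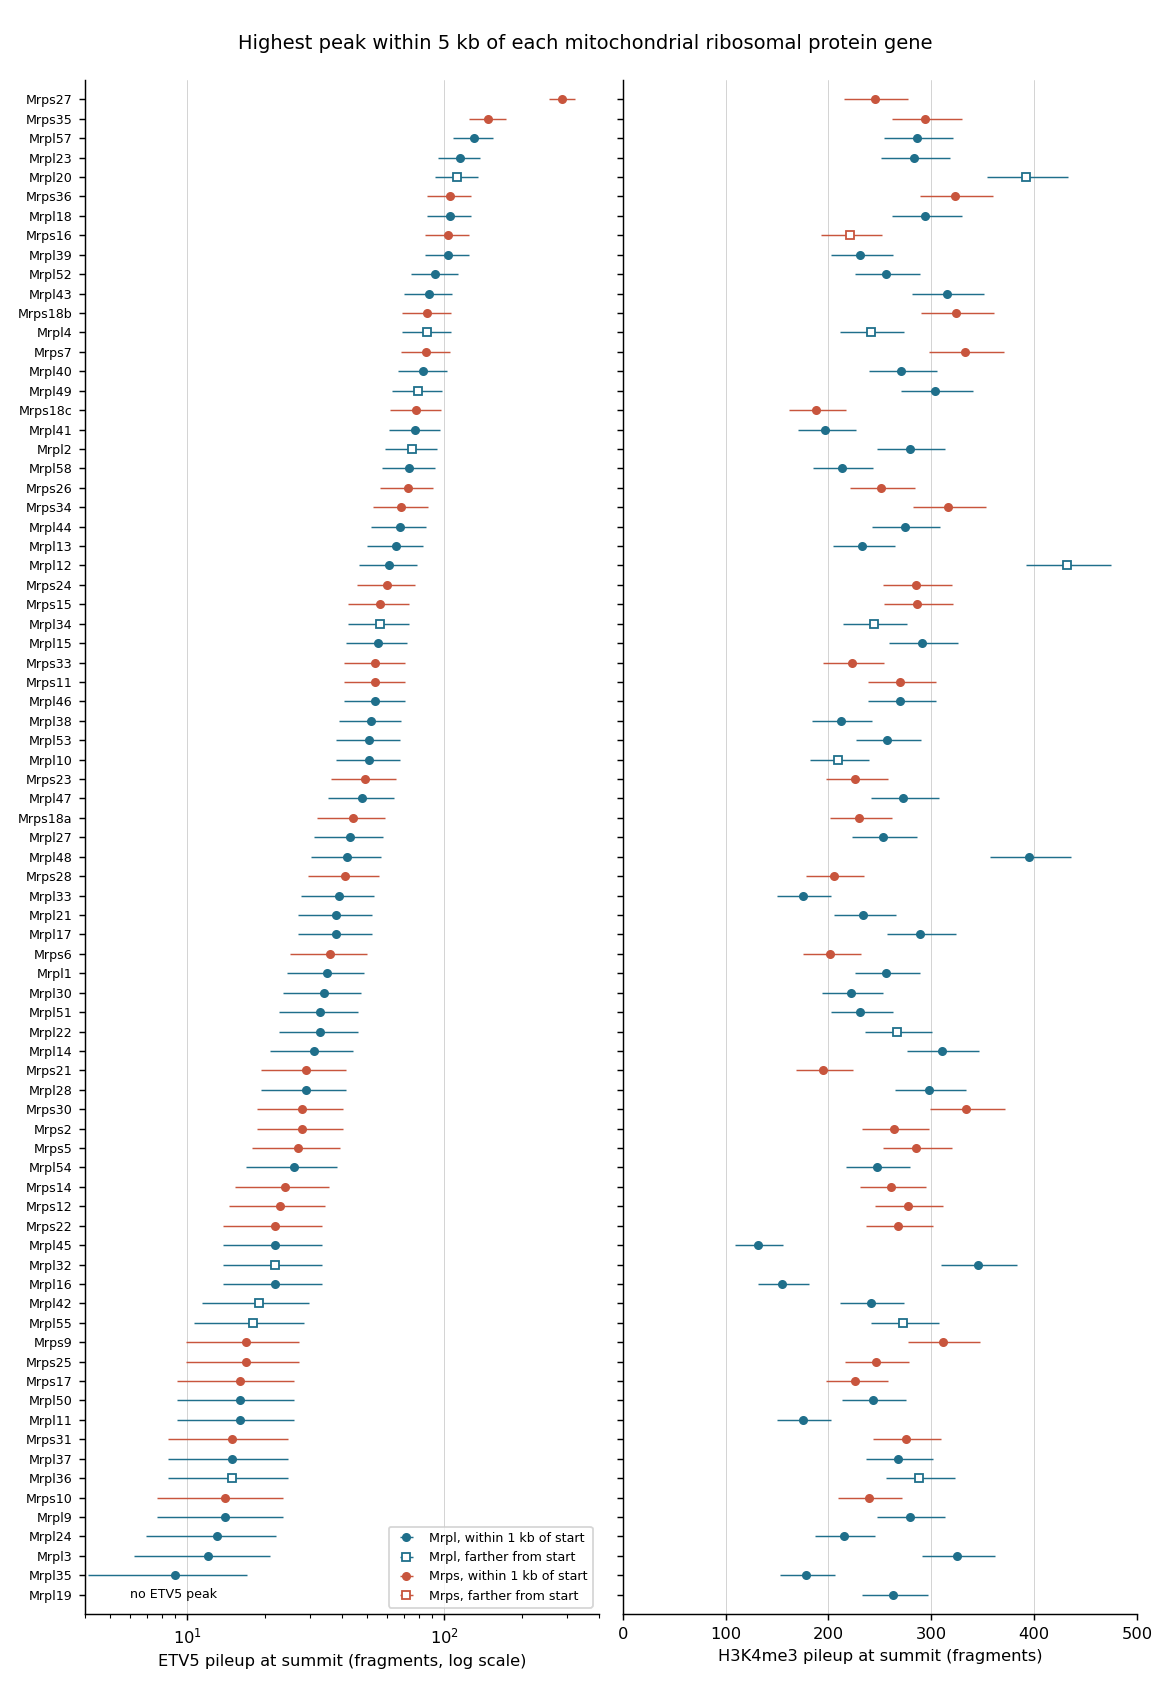
Pileup at the summit of the highest ETV5 peak (left, log axis) and highest H3K4me3 peak (right, linear axis) within 5 kb of each of the 78 genes, in fragments, with exact 95% Poisson intervals as bars, ordered by ETV5; filled points have their summit within 1 kb of the gene's start (nearer end where no start is listed) and open squares lie farther off. ETV5 spans 9 to 288 fragments and H3K4me3 spans 131 to 432, and Mrpl19 has no ETV5 peak.

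The highest ETV5 peak of all members lay at Mrps27, a small-subunit gene. Mrps27 (gene ID 218506), which encodes a pentatricopeptide-repeat protein of the small subunit, had an ETV5 pileup of 288 fragments (interval 256 to 323) and a fold of 118 in a peak at chr13:99344241-99345264. Only 12 of the 31165 ETV5 peaks were higher. Its H3K4me3 pileup of 245 ranked 49 of 78, below the members' median of 263.5. The peak also covers the start of Ptcd2, a pentatricopeptide protein gene on the other strand whose start lies 108 bp away, so it cannot be given to either gene alone. Its summit lies 76 bp from the start of Mrps27 and is nearer to that of Ptcd2. If each peak went only to the nearest start, the highest ETV5 pileup left to Mrps27 would be 13, and Mrps35 would rank highest.

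The next Mrps genes were well below it. Mrps35, a small-subunit protein gene, had an ETV5 pileup of 148 fragments (125 to 174) in a peak that no other listed start shared. Mrps36, whose protein was originally counted with the mitochondrial ribosome and is now known as part of the 2-oxoglutarate dehydrogenase complex, had 105 (85.9 to 127), also with no other start in the peak. Mrps16, a small-subunit protein with a bacterial counterpart, had 103 (84.1 to 125), and Mrps18b had 86 (68.8 to 106) in a peak shared with Ppp1r10, a protein phosphatase regulatory subunit. The intervals of Mrps36, Mrps16 and Mrps18b overlap one another, and that of Mrps27 overlaps none of them.

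Among the large-subunit genes, Mrpl57 had the highest ETV5 peak, and the intervals of the 5 highest overlap one another. Mrpl57 had 130 fragments (109 to 154) with a fold of 42.6, in a peak shared with Ska3, a kinetochore protein gene that starts 76 bp away. Mrpl23, a large-subunit protein with a bacterial counterpart, had 115 (94.9 to 138). Mrpl20 had 112 (92.2 to 135), but this summit lies 9484 bp downstream of its start at the start of Ccnl2, a cyclin gene. The ETV5 peak within 1 kb of the Mrpl20 start had 52, with its summit 702 bp downstream of that start. Mrpl18 had 105 (85.9 to 127) in a peak shared with Tcp1, a subunit of the cytosolic chaperonin, and under the nearest-start rule no ETV5 peak would be left to Mrpl18. Mrpl39 had 103 (84.1 to 125) in a peak with no other start. Mrpl52, next in order, had 92.

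A single member, Mrpl19, had no ETV5 peak within 5 kb. Mrpl19 encodes a large-subunit protein with a bacterial counterpart, and the nearest ETV5 summit lay 33888 bp from the gene with a pileup of 12. Its H3K4me3 peak, at chr6:81965316-81966126, had a pileup of 263 that is close to the members' median, in a peak of 811 bp that is the third narrowest of the 78. The lower depth of the ETV5 list limits which weak peaks could be called there. The 5 lowest called ETV5 peaks were those of Mrpl35 with 9 fragments (4.12 to 17.1), Mrpl3 with 12 (6.20 to 21.0), Mrpl24 with 13, Mrpl9 with 14 and Mrps10 with 14. All 5 encode proteins with bacterial counterparts, as do 45 of all 78 members, and the members next in order, at 15 fragments, include some without one. The 5 have intervals that overlap one another, and their H3K4me3 pileups ran from 178 at Mrpl35 to 325 at Mrpl3. The start of Mrpl32 carried an ETV5 peak as low as that of Mrpl35, at 9 fragments, and its highest within 5 kb had 22. The start of Mrpl36 had 12, and a peak of 15 lay at the start of Ndufs6, a complex I subunit gene.

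Large-subunit and small-subunit symbols had nearly the same ETV5 and H3K4me3 levels. The median highest ETV5 pileup was 42.5 over 48 of 49 Mrpl genes and 44 over 29 of 29 Mrps genes, and the median H3K4me3 pileup was 263 and 264. Symbols do not follow the structure in every case, since the proteins of Mrps30 and Mrps18a are known to sit in the large subunit. Split by ancestry, the 45 members with a bacterial counterpart had a median ETV5 pileup of 35.5 over 44 genes with a peak, and the 33 without one had 54. The quartiles of these groups, 22 to 57 and 28 to 83, overlap, and H3K4me3 medians were 267 and 256.

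The members' H3K4me3 peaks lay mostly in the middle of the range of all marked genes. The highest H3K4me3 pileup ran from 131 to 432 fragments, with a median of 263.5 and quartiles of 230.25 and 287.5. Over all 12997 protein-coding genes with a peak the median was 243 with quartiles of 162 and 304, and 63 of the 78 members lay inside these quartiles. The highest values were at Mrpl12 with 432 (392 to 475), Mrpl48 with 395 (357 to 436) and Mrpl20 with 392 (354 to 433). The peak of Mrpl12, which encodes the stalk protein of the large subunit, lies at the start of Slc25a10, the mitochondrial dicarboxylate carrier, and the peak at the start of Mrpl12 itself had 263. The peak of Mrpl20 again lies at Ccnl2, and the peak within 1 kb of its own start had 259, with its summit 951 bp downstream. That of Mrpl48 lies at its own start and that of Rab6a, a GTPase of the Golgi. Mrpl32, whose protein is matured by the m-AAA protease, had 345 and Mrpl3 had 325. Among Mrps genes, Mrps30 had 334, Mrps7 333, Mrps18b 324, Mrps36 323 and Mrps34 316, 5 values whose intervals overlap. Under the nearest-start rule no H3K4me3 peak would be left to Mrpl32 or Mrps18b.

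The members' H3K4me3 peaks had a somewhat lower median width, 1321.5 bp (quartiles 1050.5 and 1598), than all protein-coding genes with a peak. Those had 1443 bp (1071 and 1911), and the quartile ranges overlap. The widest were those of Mrps18b at 4393 bp, shared with Ppp1r10, of Mrps34 at 2956 bp, shared with Eme2, an endonuclease subunit gene, and Nme3, a nucleoside diphosphate kinase gene, and of Mrpl14 at 2710 bp, shared with Tmem63b, a membrane channel gene. All 3 of the widest peaks cover another gene's start, which a wider peak is more likely to do by definition. Of all members 44.9% shared their highest H3K4me3 peak. The narrowest were those of Mrpl45 at 609 bp, which also had the lowest pileup of the members at 131 (110 to 155), of Mrpl54 at 783 bp and of Mrpl19 at 811 bp, none shared with another listed start. Most members had 1 ETV5 peak overlapping their highest H3K4me3 peak (67 of 78), 10 had more than 1 and Mrpl19 had 0. No share over all protein-coding genes is given for these counts, so they are not read as a trait of the members. Mrps18b had 3 such ETV5 peaks, and Mrpl10, Mrpl14, Mrpl32, Mrpl34, Mrpl37, Mrpl41, Mrpl55, Mrps18a and Mrps34 had 2 each. For Mrpl10, Mrpl34 and Mrpl55 this H3K4me3 peak lies at another gene's start (Osbpl7, Dda1 and 2310033P09Rik). The H3K4me3 peak at the own start of each of them overlapped 1 ETV5 peak.

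Several members had further peaks within the window. There were 2 or more ETV5 peaks within 5 kb at 37 of 78 members (47.4%, 36.0 to 59.1%), against 36.4% of all protein-coding genes, and 2 or more H3K4me3 peaks at 23 (29.5%, 19.7 to 40.9%), against 18.2%. Over genes with at least 1 peak the direction turned for ETV5, with 48.1% of members (36.5 to 59.7%) against 57.8%, and the H3K4me3 background was 30.6%. The members' intervals include both of these values. By number, 40 members had 1 ETV5 peak, 21 had 2 and 16 had 3 or more. Mrpl14 had the most with 7, followed by Mrps23 with 6, and these were named after their values were seen. The highest ETV5 peak lay within 1 kb of the member's own start or nearer end in 68 of 77 members (88.3%), against 71.5% of genes with a peak, and the highest H3K4me3 peak in 69 of 78 (88.5%), against 79.7%. The exceptions farthest out for ETV5 were Mrpl42, 25868 bp downstream of its start, Mrpl20 at 9484 bp and Mrpl55 at 5815 bp, at the start of 2310033P09Rik. The summit of Mrpl42 had 19 fragments and lay 4724 bp beyond the gene, while its own start had 14. A far higher ETV5 peak of 274 lay 13170 bp from Mrpl42, outside the window. Closest to the limit of 5 kb were an ETV5 peak of 8 fragments 4836 bp from Mrpl45 on the inside, and a peak of 66 fragments 5007 bp from Mrps36 on the outside, in each case lower than the gene's highest peak.

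Most ETV5 summits lay within 100 bp of the start, and most H3K4me3 summits downstream of it. The latter share was near that of other genes. At the 69 members with a listed start, the median ETV5 summit lay at -4 bp (quartiles -76 and 73, negative values upstream), against 42 bp over the 9606 protein-coding genes with an ETV5 summit within 1 kb of a start. It lay within 100 bp of the start in 40 of 69 (58.0%, 45.5 to 69.8%), against 40.7%, and downstream of it in 34 (49.3%, 37.0 to 61.6%), against 60.2%. The closest were Mrpl16 and Mrps33 at -4 bp, Mrps21 at -6 bp and Mrpl53 at 6 bp. The median H3K4me3 summit lay at 181 bp (128 and 222), against 207 bp. It was within 100 bp of the start in 0 of 69 members (interval 0 to 5.21%), against 7.21% of genes, and downstream in 55 (79.7%), against 82.9%.

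Along the gene, the H3K4me3 summit was downstream of the ETV5 summit in 54 of 69 members (78.3%, 66.7 to 87.3%), against 71.1% of genes with both at a start, with a median offset of 148 bp against 140 bp. The ETV5 summit fell inside the H3K4me3 peak of the same gene in 66 of 69 (95.7%), against 94.8%. It lay outside by 94 bp at Mrpl48, 45 bp at Mrpl17 and 20 bp at Mrpl45. These 3 are thus at the edge of the mark rather than distant from it. For each antibody the peak taken was the highest within 1 kb of any listed start of the gene. At genes with several starts the peaks can therefore belong to different starts, as at Mrpl48. Over all protein-coding genes with both, the offset ranged from -493003 to 307952 bp, so the background values include such pairs.

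A large share of the members start beside a gene on the other strand. Another protein-coding start on the other strand lay within 1 kb in 25 of 69 members (36.2%, 24.99 to 48.7%), against 9.61% of genes with a listed start and 17.5% of genes with both peaks at a start. Several neighbours also encode mitochondrial proteins. Mrpl43 starts 116 bp from Twnk, the helicase of mitochondrial DNA, Mrps12 starts 147 bp from Sars2, the mitochondrial seryl-tRNA synthetase, and Mrpl47 starts 308 bp from Ndufb5, a complex I subunit. Other neighbours act elsewhere in the cell, such as Psma2 of the proteasome 205 bp from Mrpl32, Hira, a histone chaperone, 113 bp from Mrpl40, and Fau, which encodes a cytosolic ribosomal protein, 192 bp from Mrpl49. The neighbours in these examples were chosen for their known roles after the list of neighbours was seen.

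The position of the H3K4me3 summit differed between members with and without such a neighbour. Without one, the summit was downstream of the member's start in 43 of 44 (97.7%, 88.0 to 99.9%), against 89.2% of genes without one, at a median of 200 bp. The exception was Mrps10 at -183 bp. With one, it was downstream in 12 of 25 (48.0%, 27.8 to 68.7%), against 53.9% of genes with one. In the others the summit lay upstream, as in Mrpl40 at -853 bp towards Hira and Mrps18b at -856 bp towards Ppp1r10. At Mrpl41 (-375 bp) and Mrpl51 (-222 bp) it lay between both starts, nearer to the member's own. The ETV5 summit had a median of 24 bp without a neighbour and -76 bp with one.

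**Figure D2:**
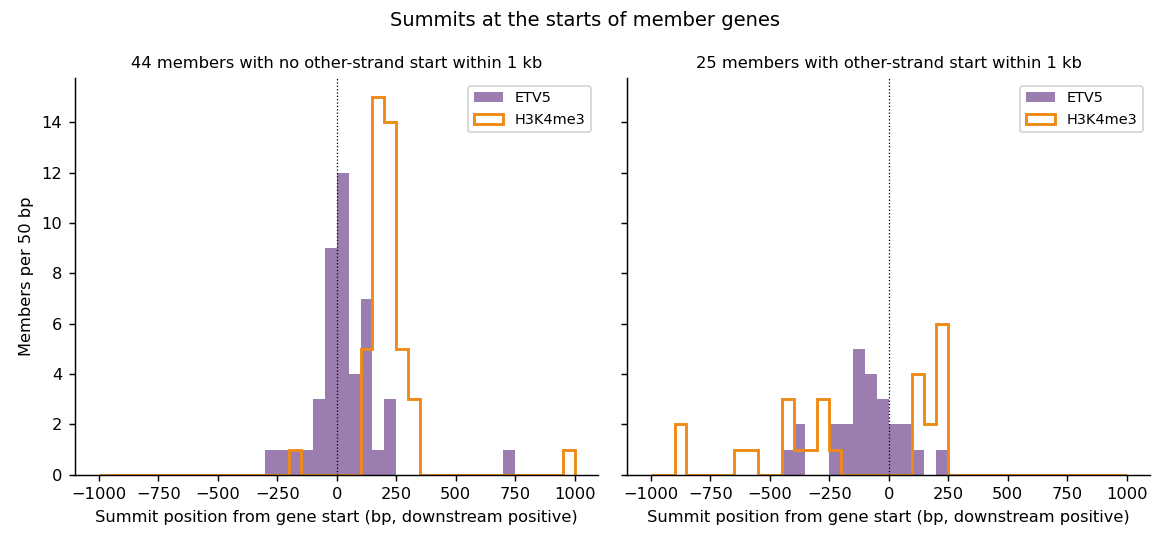
Number of members per 50 bp of summit position, in bp from the gene start with downstream positive, for ETV5 (filled) and H3K4me3 (outline), in the 44 members without (left) and the 25 with (right) a protein-coding start on the other strand within 1 kb. On the left H3K4me3 gathers downstream of the start around its median of 200 bp and ETV5 around 24 bp, while on the right H3K4me3 falls on both sides, with a median of -222 bp.

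Members with a neighbour on the other strand also had wider H3K4me3 peaks and higher ETV5 pileups, as did genes of the same kind in the background. The median H3K4me3 width at the start was 1686 bp with a neighbour (background 1730 bp) and 1093.5 bp without (background 1406 bp). The median ETV5 pileup at the start was 43 with a neighbour (background 43) and 31 without (background 29). Over the 76 members with both peaks at a start or nearer end, ETV5 pileup and H3K4me3 pileup had a Pearson correlation of 0.133 and a Spearman correlation of 0.169. ETV5 pileup and H3K4me3 width had 0.218 and 0.365. These describe genes of the same pair of libraries, which are not independent replicates, and some of them share a peak.

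**Figure D3:**
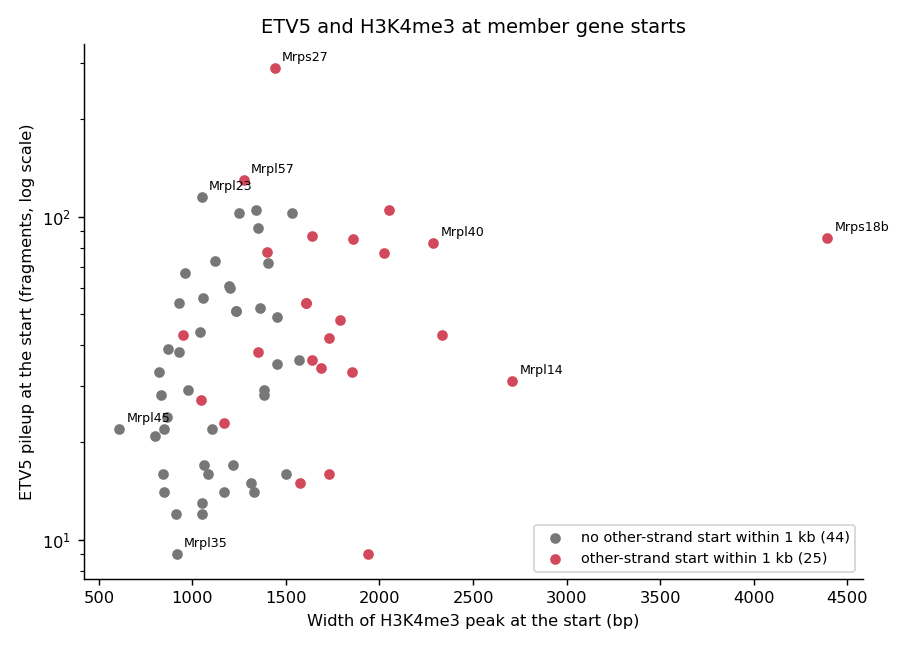
ETV5 pileup (fragments, log axis) against H3K4me3 width (bp) at the start of the 69 members with a listed start, 1 point per gene, in red where a protein-coding start on the other strand lies within 1 kb. The red points lie to the right of the grey ones on the whole (median widths 1686 and 1093.5 bp), while both colours reach from low to high ETV5 pileup.

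Many members shared their peaks with another gene's start. The highest ETV5 peak of 30 of 77 members (39.0%, 28.0 to 50.8%) also held or lay within 1 kb of another protein-coding start, against 21.2% of genes with an ETV5 peak, and the highest H3K4me3 peak of 35 of 78 (44.9%, 33.6 to 56.6%), against 22.9%. Counting only peaks at the member's own start, 26 of 69 (37.7%) were shared for either antibody, against 16.8% for ETV5 and 17.3% for H3K4me3. These 26 are the 25 members with a start on the other strand within 1 kb and Mrps6, which starts 14 bp from Slc5a3 on the same strand. This count thus largely restates that of neighbours. Mrpl46 and Mrps11, a large-subunit and a small-subunit gene whose starts face away from each other 42 bp apart, were the only members that shared a peak with another member. Their common ETV5 peak at chr7:78782852-78783448 had 54 fragments and a fold of 27.9, with its summit 107 bp downstream of the Mrps11 start, and their common H3K4me3 peak had 270 fragments over 1605 bp, with its summit on the Mrpl46 side, 236 bp downstream of that start.

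ETS, NRF1 and YY1 letters were more frequent in member promoters than in promoters at large. The 69 members have 75 promoters of 300 bases in the table, from 250 before to 50 after a start, and each motif was searched on both strands. Windows of genes with more than 1 start can overlap. CCGGAAG was present in 26 of 75 (34.7%, 24.04 to 46.5%), against 11.6% of all 21262 protein-coding promoters and 19.9% of the 10972 with an H3K4me3 summit within 1 kb. CCGGAAGT, which contains the former, was in 12 (16.0%, 8.55 to 26.3%), against 5.15% and 9.22%. The promoters that already had an ETV5 summit inside the window were a closer comparison, with CCGGAAG in 21 of 48 member promoters (43.8%) and in 32.5% of all 4822 such promoters. Among these, AAGATGGC was in 5 of 48 (10.4%) against 4.85%, CCGGAAGT in 9 (18.8%) against 15.9%, and the palindromic NRF1 motif in 1 (2.08%) against 2.72%. No intervals are given for these 48 promoters, so an excess over other promoters with an ETV5 summit was not assessed.

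The other motifs differed in how far the members stood from marked promoters. AAGATGGC was in 12 member promoters (16.0%, 8.55 to 26.3%), against 3.05% of all and 4.75% of marked promoters. The NRF1 motif with any base allowed at its sixth letter was in 13 (17.3%, 9.57 to 27.8%), against 6.38% and 11.4%. Its palindromic form, shown in capitals in Mrpl32 above, was in 3 (4.0%, 0.833 to 11.2%), against 1.33% and 2.38%. The interval of this form includes the share of all promoters as well. CCAAT, the letters of NF-Y sites, was in 30 (40.0%), against 38.2% and 37.9%, and TATAAA, the TATA box, in 5 (6.67%), against 12.6% and 5.65%. The intervals over all 75 member promoters exclude the share of marked promoters for CCGGAAG and AAGATGGC. They include it for CCGGAAGT, both forms of the NRF1 motif, CCAAT and TATAAA. This does not extend to the comparison with promoters that had an ETV5 summit inside the window.

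**Figure D4:**
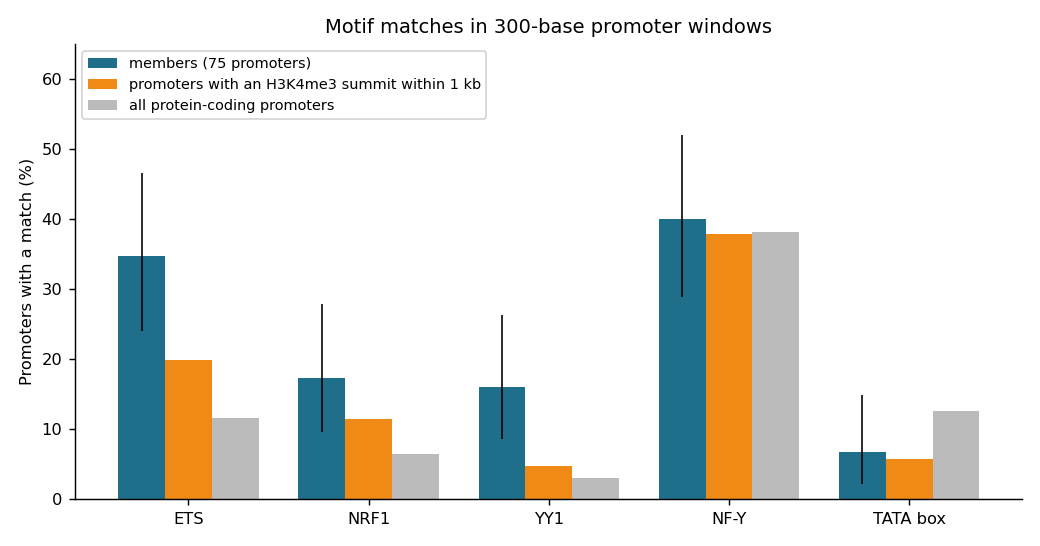
Percentage of 300-base promoter windows with at least 1 match on either strand to CCGGAAG (ETS), the NRF1 motif with 1 free letter, AAGATGGC (YY1), CCAAT (NF-Y) and TATAAA, in the 75 member promoters (with exact 95% intervals), in promoters with an H3K4me3 summit within 1 kb and in all protein-coding promoters. Members reach 34.7% for ETS and 16.0% for YY1, above the 19.9% and 4.75% of marked promoters, and 40.0% for NF-Y, close to its 37.9%.

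The distance between ETV5 summits and CCGGAAG matches was near that of other genes. Over the 26 members with a match, the median distance from the ETV5 summit to the nearest match was 44.5 bp (quartiles 21.8 and 93.5), and 17 of 26 (65.4%, 44.3 to 82.8%) lay within 50 bp. Over the 2025 protein-coding genes with a match and an ETV5 summit within 1 kb of that start, the median was 49 bp (21 and 112) and 50.9% lay within 50 bp. Matches and summits both lie near the start, with a median match position of -14 bp in the members. In the stretches printed above, the summit was 31 bp from the match in Mrps27, 27 bp in Mrpl57, 20 bp from the nearer of 2 matches in Mrpl43, 29 bp in Mrpl52, 49 bp in Mrpl58 and 19 bp in Mrpl53. ETV5 pileup at the start had a median of 46.5 in the 26 members with a match and 29 in the 43 without, while H3K4me3 had 248 and 264. The same split over all protein-coding genes with ETV5 at a start gave 55 with a match and 26 without, and an ETV5 summit was within 1 kb of the start in 89.9% of genes with a match and 49.7% of genes without.

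Letters and height did not go together in every member. Mrpl23, with 115 fragments, held no CCGGAAG in its window, and its ETV5 summit lay 233 bp downstream of the start, beyond the window. Mrpl35 and Mrpl32, each with 9 at the start, and Mrpl36, with 12, held none either, whereas Mrpl3, also with 12, held a match 225 bp from its summit. More than 1 match was found in 5 member promoters (6.67%, 2.20 to 14.9%), against 2.06% of all and 3.84% of marked promoters, namely those of Mrpl52, Mrpl43, Mrpl58, Mrpl53 and the second, downstream start of Mrps16, with ETV5 pileups of 92, 87, 73, 51 and 103. All 5 are above the members' median of 38 at listed starts.

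Genes that work with the mitochondrial ribosome were taken from lists fixed by role. Mitoribosome proteins with other symbols, 5 genes, all had ETV5 peaks within 5 kb, with 167 fragments at Dap3, the GTP-binding protein of the small subunit (none within 1 kb of its own start or nearer end), 136 at Aurkaip1, 111 at Chchd1 (21 at its own start), 108 at Ptcd3 and 36 at Gadd45gip1, and a median of 111. Over the 4 of them with ETV5 within 1 kb of the start or nearer end the median was 72. The 12 mitochondrial translation factors all had ETV5, with a median of 33.5, from 9 at Mtfmt, the methionyl-tRNA formyltransferase, to 87 at Mrrf, the ribosome recycling factor. ETV5 was at 23 of 24 assembly and rRNA modification genes with a median of 26 and at 19 of 19 mitochondrial aminoacyl-tRNA synthetase genes with a median of 34. Every gene of these lists had H3K4me3 within 5 kb. ETV5 was at 63.1% of all protein-coding genes and at 95.2% of those with H3K4me3, so these counts are not read as a trait of the lists. The first of these lists thus had the highest median within 5 kb of the translation genes, from 5 values that range from 36 to 167.

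Cytosolic ribosomal protein genes and respiratory chain genes gave the values nearest in kind. Of 91 cytosolic ribosomal protein genes 86 had ETV5 with a median of 49 (quartiles 36.25 and 79), and of 88 respiratory chain and ATP synthase genes 82 had it with a median of 33 (20 and 56.5), on either side of the members' 43 (23 and 73). These shares were 94.5% and 93.2%, against 63.1% of all protein-coding genes and 95.2% of those with H3K4me3. H3K4me3 medians were 321 for cytosolic ribosomal protein genes, 276 for respiratory chain genes and 263.5 for the members. The quartile ranges of the 3 groups overlap for ETV5 and for H3K4me3, where the cytosolic genes ran from 272 to 349.

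**Figure D5:**
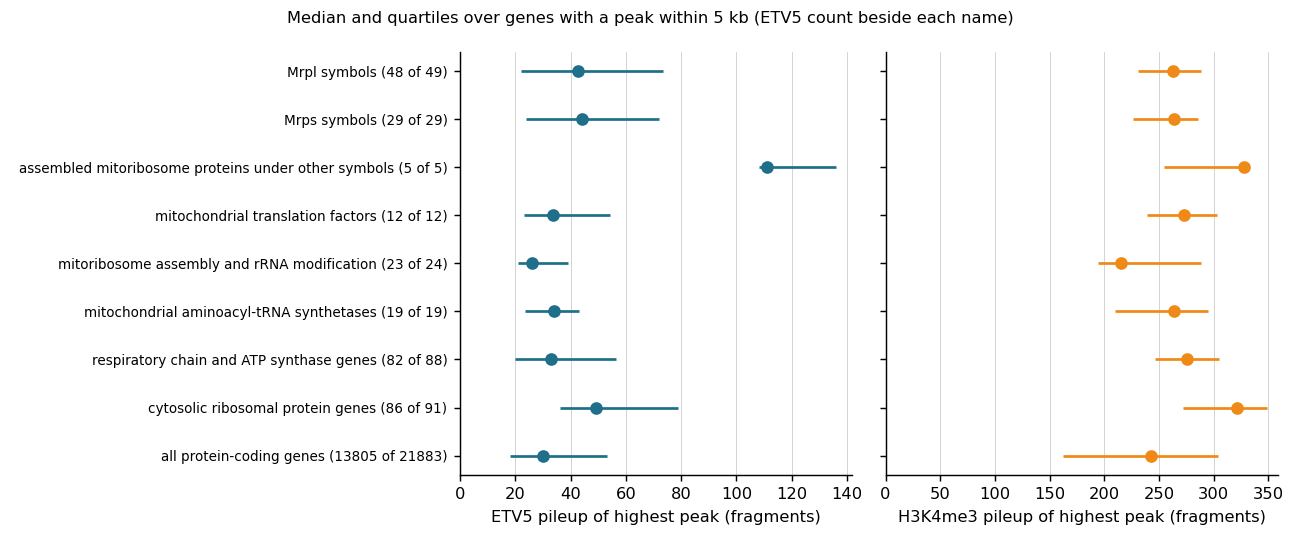
Median (point) and quartiles (bar) of the highest ETV5 pileup (left) and H3K4me3 pileup (right) within 5 kb, in fragments, over the genes of each list that have a peak; the counts beside the names are genes with an ETV5 peak of all genes in the list. Mrpl and Mrps genes have ETV5 medians of 42.5 and 44, between respiratory chain genes at 33 and cytosolic ribosomal protein genes at 49, and the 5 mitoribosome proteins with other symbols stand at 111 (72 at the start in 4 of them).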

How the data were processed

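ETV5, H3K4me3 and input were 1 library each, grouped by the antibody in the labels, and 2 peak lists were analysed. Peaks were called per library with MACS2 2.1.0.20150420 at a q-value of 0.05, per the file headers and the submitters' processing notes. The read aligner was not given in the sources used here. Per the file headers the pileup signal counts fragments at the summit with the larger library scaled down. The input was larger each time (27495486 tags for ETV5 and 44758677 for H3K4me3), so the ChIP pileups stand unscaled, and all 46299 were whole numbers. Tags were 75 bp for ETV5 and 50 bp for H3K4me3, and fragment lengths 203 and 288 bp. The fold enrichment ratio and the −log10 q-value are the authors' deposited values. The input behind the ETV5 list carries another name in its header than the input sample of the labels. The labels name mm9, but the coordinates are those of GRCm38: 60.7% of the summits of H3K4me3 fell at most 1 kb from a start of that build.

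A peak was given to every protein-coding gene with its summit in the gene or within 5 kb of it. It counted as shared where another protein-coding start lay in it or within 1 kb of its summit. Counts and medians were set beside the same over all protein-coding genes, with no test. Unplaced scaffolds and mitochondrial DNA entered no comparison. Python 3.11.15, pandas 2.3.3, scipy 1.17.1 and matplotlib 3.10.9 were used, both member counts were checked with bedtools 2.31.1, and the steps were tested on simulated data.

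Members, lists and rules were chosen with earlier results of these data known. Named are the 5 members of each symbol series with the highest ETV5 and H3K4me3 pileup and the 5 with the lowest ETV5 pileup. The 3 widest and 3 narrowest H3K4me3 peaks, members without a peak and the 3 closest and 3 farthest ETV5 summits are named too. So are members with several ETV5 peaks overlapping H3K4me3, members that share a peak, those at the window's limit, and the genes sharing these peaks. The other members named illustrate motifs and neighbours.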

Additional observations from a re-analysis of the deposited data

How the results depend on the processing

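The count of members with ETV5 was 77 with a window of 1 or 20 kb, with any base of the peak or with gene ends only, 71 at a −log10 q of at least 10, 57 at a fold of at least 10 and 64 when each peak went only to the gene with the nearest start. For H3K4me3 it was 78 in all of these except the last, which gave 65. Over all protein-coding genes 60.6% had ETV5 with a window of 1 kb, 68.6% with 20 kb and 56.6% under the nearest-start rule. For H3K4me3 these shares were 56.8%, 65.8% and 51.7%. At a fold of at least 10 they were 42.3% for ETV5 and 53.8% for H3K4me3. The members' median ETV5 pileup ranged from 32 (each peak given only to the nearest start) to 54 (a window of 20 kb, or pileups summed over the window). The median H3K4me3 pileup ranged from 251 (nearest start) to 278 (summed pileups). Under the nearest-start rule the medians over all protein-coding genes with a peak were 26 for ETV5 and 231 for H3K4me3, and with a window of 20 kb they were 36 and 261 (members 54 and 272). Members that shared their highest peak numbered from 30 to 38 for ETV5 and from 35 to 40 for H3K4me3 under other definitions of sharing. The rules based on a listed start (69 of 69 members with either antibody, medians of 38 and 257) and on gene ends as shared were chosen after seeing the data. No paired analysis was possible because each antibody has 1 library. At the ETV5 depth of 5715049 tags the weakest called signal, as the highest peak of any protein-coding gene, was 5 fragments, and the intervals of pileups below 20 are wide.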

Other observations

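Genes that control or carry out mitochondrial transcription, upstream of the ribosome's RNAs, had a higher median ETV5 pileup than the members. Of 12 such genes 10 (83.3%) had ETV5 within 5 kb, against 63.1% of all protein-coding genes and 95.2% of those with H3K4me3. The median highest pileup of the 10 was 71.5 fragments, with quartiles of 38.5 and 90.25 that overlap the members' 23 and 73. Gabpb1, a subunit of the ETS factor GABP, had 206, its partner subunit Gabpa 91, Tfam, which packages mitochondrial DNA, 88, and Yy1 71, Nrf1 36 and Polrmt, the mitochondrial RNA polymerase, 46. The lowest were the coactivator genes Ppargc1b with 27 and Ppargc1a with 18, neither at its own start. Esrra had 93, but 21 at its own start. Mterf1a and Mterf2, which encode mitochondrial termination factor family proteins, had no ETV5 peak, and their H3K4me3 pileups of 57 and 87 were the lowest of the 12.

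The 6 annotated pseudogenes of members (of Mrpl23, Mrpl27, Mrpl48 and Mrps36) had 0 ETV5 and 0 H3K4me3 summits within 5 kb, which allows a share of up to 45.9% (exact 95% interval). On mitochondrial DNA the ETV5 list held 1 peak, at positions 14521 to 14748, with a pileup of 125 fragments and a fold over input of 1.597, and the H3K4me3 list held 0.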
